A study of Mus musculus with 32 samples.

Results

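CD4+ helper T cells that met antigen in medium with lysine at 1% of its normal RPMI level were compared with the same kind of cells that met antigen in full medium, 48 h after the start of culture. The comparison rests on 6 of the 32 arrays of the series, chosen by their titles: 3 arrays of cells given OVA with low lysine and 3 arrays of cells given OVA in full medium. The cells came from axial and cervical lymph nodes of Balb/c mice that carry the DO11.10 transgene, a T cell receptor that recognises a peptide of ovalbumin (OVA). Antigen was presented by peritoneal macrophages, collected 3 days after an injection of thioglycollate, an irritant that draws such cells in. All media were made from RPMI-SILAC, a formula without some amino acids, with arginine, leucine or lysine added back. CD4+ cells were sorted as viable singlets, so what was measured is the RNA of the sorted population with any cells that passed the same gate. Neither group was treated with IL-4 or IL-10, and the ages of the mice are not given in the sources used here. Medium with 1% leucine or 1% arginine and antigen (3 arrays each), and medium with 1% lysine and no antigen (3 arrays), serve below to show where the low lysine cells differ. Apart from the shared fit, arrays of cells without antigen in 1% leucine (3) and in 1% arginine (2) enter only the comparison of antigen effects between media.

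Lysine is an essential amino acid: T cells cannot make it and take it up through cationic amino acid transporters of the Slc7 family, which also carry arginine. When an amino acid is short, its uncharged transfer RNA activates the kinase GCN2, which slows general protein synthesis but favours translation of the transcription factor ATF4. ATF4 raises genes for amino acid synthesis and uptake, and the same shortage lowers the activity of mTORC1, a kinase complex that drives cell growth, sterol and fatty acid synthesis and glycolysis. Antigen normally moves a resting T cell into growth and division, with a large rise in all of these programmes.

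Each array (Affymetrix MoGene-2_0-st) gave a log2 RMA level for 41345 probe sets, which named 22180 genes. RMA levels have no true zero and no detection call, so low levels are given as measured. Medians over the genes were 5.59 to 5.64 in full medium and 5.62 to 5.71 in low lysine. Correlations across genes between arrays of a group were 0.988 to 0.990 in full medium and 0.973 to 0.981 in low lysine, and no pair was identical. Whether the replicates came from different cultures or mice is not given, and the p-values therefore rest on the spread between arrays, part of which may be technical. The SE of a gene rests on 1 spread shared by all 8 groups of the 48 h platform, not on the 6 compared arrays alone. The submitters' sample numbers are 33, 35 and 39 for full medium and 18, 6 and 12 for low lysine replicates 1, 2 and 3. They fall in different runs of numbers, so any effect of such a run and the effect of the medium cannot be told apart in this comparison. In bulk samples like these, fewer cells of a type and less RNA per cell cannot be told apart. The sorted cells had high levels of the T cell receptor chain gene Cd3e (11.60, 11.71 and 11.60 in full medium and 11.77, 11.22 and 11.51 in low lysine) and of Cd4 (9.64, 9.79 and 9.93 in full medium and 9.98, 10.02 and 10.08 in low lysine). Neither gene passed the test (-0.14 with adjusted p = 0.548 and 0.24 with adjusted p = 0.307).

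Of the 22180 genes tested, 553 were higher and 1383 lower in low lysine (limma, all 48 h arrays in 1 fit, Benjamini-Hochberg adjusted p below 0.05, here called). That is 2.49% of genes higher and 6.24% lower, 8.73% in all, and the median difference over all genes was 0.02 on the log2 scale. The 3 low lysine arrays were not alike. Among the 1383 lower genes, low lysine replicate 3 lay nearest to full medium for 1087 (78.6%), and among the 553 higher genes it was the nearest for 363 (65.6%). The counts moved with single arrays: 904 genes were called without low lysine replicate 1, 903 without replicate 2 and 3183 without replicate 3, and 988 and 926 without full medium replicates 2 and 3. The direction of the calls moved with scaling, from 28.6% higher among all calls to 45.2% with quantile normalization (558 higher, 676 lower) and 18.4% with each array centred on its median (370 higher, 1642 lower). Of the calls, 121 higher and 417 lower genes held under quantile normalization and with every one of the 6 arrays left out in turn.

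Many genes of the amino acid response were higher in low lysine, and several of them carry the short DNA element through which ATF4 is known to act. Of 34 measured ATF4 targets, 30 had a RefSeq promoter (36 promoters in all, GRCm38.p6). The element TGATGNAA, read on either strand, was present in the 250 bases before the start site in 9 of these 36 promoters (25%), in 6 of 15 promoters of the called members (40%) and in 3.5% of all 32851 promoters. The list was drawn up from genes known to be ATF4 targets, so the share is a description of the list. The windows below show the match nearest to the start site in capitals with up to 40 bases on each side, 5′ to 3′ in the direction of the gene. Where the capitals read as the reverse complement, the element lies on the other strand.
Atf3, chr1:191183396-191183483, minus strand: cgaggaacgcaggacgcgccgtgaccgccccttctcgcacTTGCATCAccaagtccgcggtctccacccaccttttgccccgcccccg
Nupr1, chr7:126625533-126625620, minus strand: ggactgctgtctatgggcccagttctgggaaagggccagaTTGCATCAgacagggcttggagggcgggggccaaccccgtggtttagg
Chac1, chr2:119351009-119351096, plus strand: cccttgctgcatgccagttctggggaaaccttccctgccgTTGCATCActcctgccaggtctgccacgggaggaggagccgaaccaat
Herpud1, chr8:94386277-94386364, plus strand: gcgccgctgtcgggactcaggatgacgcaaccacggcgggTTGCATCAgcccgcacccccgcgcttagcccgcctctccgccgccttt
Asns, chr6:7693210-7693272, minus strand: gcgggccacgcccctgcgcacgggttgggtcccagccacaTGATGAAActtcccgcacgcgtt
Slc7a11, chr3:50443614-50443700, minus strand: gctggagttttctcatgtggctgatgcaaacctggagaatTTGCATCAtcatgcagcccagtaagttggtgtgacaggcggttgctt
In Atf3, Nupr1, Chac1, Herpud1 and Slc7a11 the 8 capital letters are the same, TTGCATCA, the element of the other strand. Slc7a11 has another match on the gene strand, in lower case within the window, and in Asns the element ends 16 bases before the start site. Windows are shown only for called members, all of which were higher, so the rise of these 6 genes follows from that choice. Of 9 list members with a match, 6 were called.

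Of the 34 ATF4 targets, 16 rose, 0 fell and 18 did not pass the test, with a median difference of 0.44 against 0.02 over all genes. The mean level of the list was 7.40, 7.60 and 7.55 on the full medium arrays and 8.11, 7.96 and 8.14 in low lysine, so the groups did not overlap and all 3 low lysine arrays stood apart from full medium. Cth, which makes cysteine from cystathionine, had levels of 6.45, 6.83 and 6.60 in full medium and 8.05, 8.65 and 8.73 in low lysine. It rose by 1.85 ± 0.28 (SE, adjusted p = 0.000354), or 3.6-fold. Sesn2, a sestrin that restrains mTORC1, went from 5.80, 7.03 and 6.46 to 7.83, 7.78 and 7.70, a rise of 1.34 ± 0.25 (SE, adjusted p = 0.00185). Its full medium arrays were spread widely, but all lay below the low lysine arrays. Ddit3, which encodes the stress transcription factor CHOP, went from 8.10, 8.30 and 8.62 to 9.67, 9.44 and 9.74, a difference of 1.28 ± 0.17 (SE, adjusted p = 6.53e-05). Atf3, another transcription factor of this response, went from 7.35, 7.10 and 7.51 to 8.53, 8.47 and 8.42 and rose by 1.16 ± 0.19 (SE, adjusted p = 0.000666). Its low lysine arrays lay within a narrow range. Trib3, a pseudokinase induced by CHOP and ATF4, rose by 1.1 ± 0.22 (SE, adjusted p = 0.00379), and Nupr1, a small stress-induced nuclear protein, by 1.09 ± 0.18 (SE, adjusted p = 0.00062). Asns, the enzyme that makes asparagine, had levels of 9.04, 9.35 and 9.20 in full medium and 9.97, 10.01 and 10.29 in low lysine and rose by 0.89 ± 0.22 (SE, adjusted p = 0.0148). Chac1, which breaks down glutathione, rose by 0.69 ± 0.15 (SE, adjusted p = 0.00636). Asns (0.81 to 0.90, adjusted p 0.052 to 0.0579) was not called without full medium replicate 1 or 3. Chac1 (0.57, adjusted p = 0.0521) was not called without low lysine replicate 1. With any 1 of the 6 arrays left out, 11 to 14 members of the list were called higher.

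**Figure D1:**
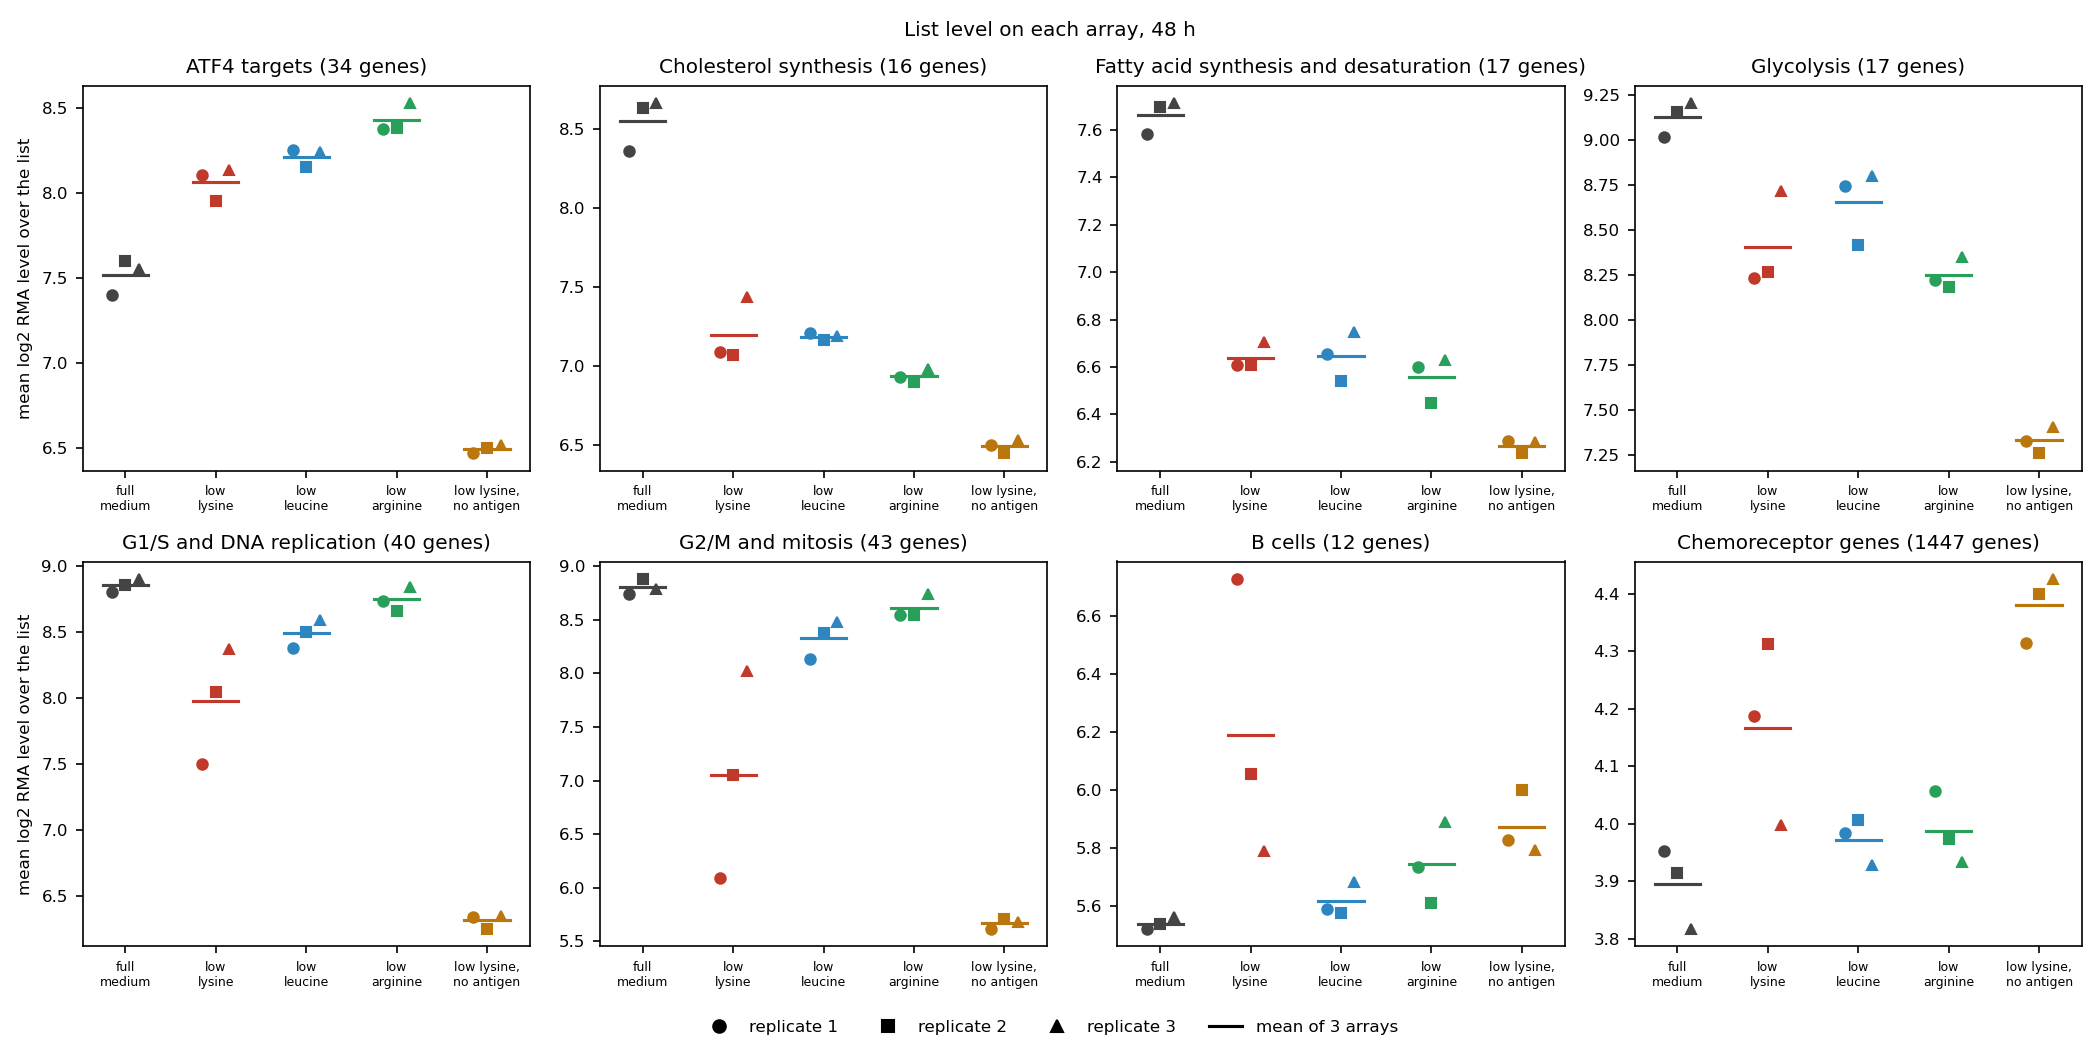
Mean log2 RMA level (y axis) of 8 gene lists on each 48 h array, with 1 point for each array and a bar at the mean of the 3 arrays of a group; each y axis has its own range. ATF4 targets lie between 7.96 and 8.14 in low lysine and between 7.40 and 7.60 in full medium, while the G2/M list spreads from 6.09 to 8.02 among the low lysine arrays.

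Among genes that move amino acids, 1 transporter stood out. Of 11 cationic amino acid transporter genes only Slc7a3, a carrier of arginine and lysine, was called (9.09%, against 2.49% of all genes higher). Its levels were 6.12, 6.48 and 6.33 in full medium and 8.20, 8.77 and 8.62 in low lysine, a rise of 2.22 ± 0.16 (SE, adjusted p = 1.60e-08) or 4.67-fold, with every low lysine array above every full medium array. Slc7a1, another carrier of both amino acids, had levels of 8.87, 8.85 and 8.88 in full medium and 9.28, 9.31 and 9.20 in low lysine, which do not overlap, but the difference of 0.40 ± 0.14 (SE, adjusted p = 0.0766) missed the threshold. Slc7a2, of the same family, had a difference of -0.04 ± 0.17 (SE, adjusted p = 0.909). Of 16 other amino acid transporter genes 4 rose and 0 fell. They were Slc7a11, the cystine carrier (0.87 ± 0.18, SE, adjusted p = 0.00494), Slc3a2, the heavy chain that pairs with several carriers (0.75 ± 0.13, SE, adjusted p = 0.00141), Slc38a2, a carrier of neutral amino acids (0.48 ± 0.14, SE, adjusted p = 0.0317), and Slc1a5, a glutamine carrier (0.39 ± 0.12, SE, adjusted p = 0.0381). Slc38a2 (0.32 to 0.53, adjusted p 0.0554 to 0.217) was not called without any 1 of the arrays other than low lysine replicate 3. Slc1a5 (0.36 to 0.42, adjusted p 0.0518 to 0.125) was not called without any 1 of the 6 arrays.

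Of 14 genes of lysine breakdown and lysine use limma called 0 higher and 2 lower, against 2.49% and 6.24% of all genes. The 2 lower genes were Plod2, a lysyl hydroxylase of collagen (7.05, 7.19 and 6.81 in full medium, 5.66, 5.15 and 6.44 in low lysine, -1.26 ± 0.29, SE, adjusted p = 0.00844), and Aldh9a1, of carnitine synthesis (-0.67 ± 0.19, SE, adjusted p = 0.0276). Aass, the first enzyme of lysine breakdown, had levels of 4.49, 4.16 and 3.95 in full medium and 4.77, 4.71 and 4.27 in low lysine, and its difference of 0.38 ± 0.18 (SE, adjusted p = 0.185) did not pass. The lysyl-tRNA synthetase gene, annotated as Kars, was measured at 9.96, 10.07 and 10.05 in full medium and 9.53, 9.55 and 10.02 in low lysine, with low lysine replicate 3 inside the full medium range, and its difference of -0.33 ± 0.13 (SE, adjusted p = 0.12) did not pass either. Of 17 cytosolic tRNA synthetase genes 11.8% rose and 11.8% fell, against 2.49% and 6.24% of all genes. The 2 higher genes were Eprs (0.40) and Iars (0.40), and the 2 lower genes Vars (-0.61) and Farsa (-0.48). This count was unstable: it was 0 higher and 0 lower without any 1 of the full medium arrays or without low lysine replicate 1, 1 higher without replicate 2, 4 lower without replicate 3, and 4 higher with none lower under quantile normalization. Of 25 regulators of mTORC1 and GCN2, Sesn2 rose and 3 fell: Castor1, the arginine sensor (-0.79 ± 0.21, SE, adjusted p = 0.0191), Depdc5, a subunit of GATOR1 (-0.56 ± 0.15, SE, adjusted p = 0.0179), and Sesn1 (-0.52 ± 0.15, SE, adjusted p = 0.0322). That is 4.0% higher and 12.0% lower, against 2.49% and 6.24% of all genes. Of 24 autophagy and lysosome genes limma called 0, with 4 at an unadjusted p under 0.05, and of 15 BCL2 family genes it called 0, with 2 at an unadjusted p under 0.05, against 8.73% of all genes called. Plod2 (-0.97, adjusted p = 0.0739) was not called without low lysine replicate 2. Aldh9a1 (-0.71 to -0.61, adjusted p 0.0506 to 0.107) was not called without any 1 of the arrays other than low lysine replicate 3. Castor1 (-0.77 to -0.69, adjusted p 0.0728 to 0.101) and Sesn1 (-0.53 to -0.49, adjusted p 0.0783 to 0.114) were not called without low lysine replicate 1 or 2 or full medium replicate 2 or 3. Depdc5 (-0.54 to -0.46, adjusted p 0.068 to 0.105) was not called without low lysine replicate 1 or full medium replicate 2 or 3. Aldh9a1 (adjusted p = 0.123), Castor1 (adjusted p = 0.123), Depdc5 (adjusted p = 0.244) and Sesn1 (adjusted p = 0.29) were not called with quantile normalization.

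Genes of cholesterol synthesis fell together. Of 16 measured, 15 fell and 0 rose, with a median difference of -1.41, and the mean level of the list was 8.36, 8.63 and 8.66 in full medium and 7.09, 7.07 and 7.44 in low lysine. All 16 lay below the full medium range on each of the 3 low lysine arrays, whereas the groups failed to overlap, in either direction, for 29.2% of all genes. Fdps, which makes farnesyl pyrophosphate, had levels of 9.74, 10.08 and 10.03 in full medium and 7.39, 7.30 and 8.34 in low lysine and fell by 4.83-fold, a difference of -2.27 ± 0.22 (SE, adjusted p = 7.96e-07). Low lysine replicate 3 was the highest of its group. Hmgcs1, an early enzyme of the pathway, went from 10.12, 10.44 and 10.42 to 8.37, 8.19 and 8.68, a difference of -1.91 ± 0.16 (SE, adjusted p = 7.90e-08). Nsdhl, a sterol demethylation enzyme, differed by -1.97 ± 0.20 (SE, adjusted p = 1.35e-06), and Pmvk, the phosphomevalonate kinase, by -1.73 ± 0.23 (SE, adjusted p = 7.17e-05). Without any 1 of the 6 arrays 13 to 15 members were called lower. The controls of the pathway fell in part: of 9 genes of SREBP control and lipoprotein uptake 4 fell, Insig1 (9.67, 9.70 and 9.90 in full medium, 7.83, 7.99 and 8.31 in low lysine, -1.71 ± 0.16, SE, adjusted p = 7.96e-07), Stard4 (-1.54 ± 0.21, SE, adjusted p = 7.73e-05), Srebf1 (-0.74 ± 0.14, SE, adjusted p = 0.0017) and Mylip (-0.56 ± 0.14, SE, adjusted p = 0.0121). INSIG1 retains SREBP, the factor that turns on sterol genes, when sterols are plentiful, and STARD4 carries cholesterol within the cell. Of 8 LXR targets, which usually answer to sterol excess, 4 fell: Srebf1 and Mylip again, with Lpcat3 (-0.74) and Abcg1 (-0.65). Mylip (-0.41, adjusted p = 0.102) was not called without full medium replicate 3. Lpcat3 (-0.70 to -0.67, adjusted p 0.0501 to 0.0554) was not called without low lysine replicate 1 or full medium replicate 2. Srebf1 (adjusted p = 0.0615), Mylip (adjusted p = 0.0925), Lpcat3 (adjusted p = 0.0568) and Abcg1 (adjusted p = 0.168) were not called with quantile normalization.

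The sterol regulatory element through which SREBP is known to act, searched as TCACNCCAC on both strands, was found in 1 of 15 promoters of called cholesterol genes and in 1.1% of all promoters. The match was in Hmgcs1, shown here with the element in capitals because the gene is among the 4 sterol genes with the largest fall.
Hmgcs1, chr13:119690174-119690262, plus strand: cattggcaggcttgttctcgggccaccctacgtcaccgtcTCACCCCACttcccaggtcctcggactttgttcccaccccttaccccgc
Of the 15 called genes 12 had a RefSeq promoter, and for the rest no window was searched. For the others of these 12 the search says only that these letters are not in the window.

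Fatty acid genes included 2 of the 3 largest falls among called genes without overlap and with a symbol of their own. Of 17 genes of fatty acid synthesis and desaturation 11 fell and 0 rose, with a median of -0.68, and the list level was 7.58, 7.70 and 7.71 in full medium and 6.61, 6.61 and 6.70 in low lysine. Fads2, the delta-6 desaturase of polyunsaturated fatty acids, had levels of 9.45, 9.74 and 9.43 in full medium and 4.59, 4.81 and 4.97 in low lysine, a difference of -4.75 ± 0.21 (SE, adjusted p = 1.43e-12), or 26.9-fold lower. The low lysine levels overlapped with those of cells that had no antigen in the same medium (5.04, 5.22 and 4.67). Scd1, the desaturase that makes oleic acid, went from 9.23, 9.73 and 9.82 to 6.67, 5.17 and 5.46, a difference of -3.83 ± 0.29 (SE, adjusted p = 2.33e-08), with low lysine replicate 1 the highest of its group. Elovl6, a fatty acid elongase, fell by 2.9-fold, a difference of -1.54 ± 0.23 (SE, adjusted p = 0.000257), and Fasn, the fatty acid synthase, by 2.41-fold, a difference of -1.27 ± 0.15 (SE, adjusted p = 1.84e-05). These 4 calls held with each of the 6 arrays left out and under quantile normalization.

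**Figure D2:**
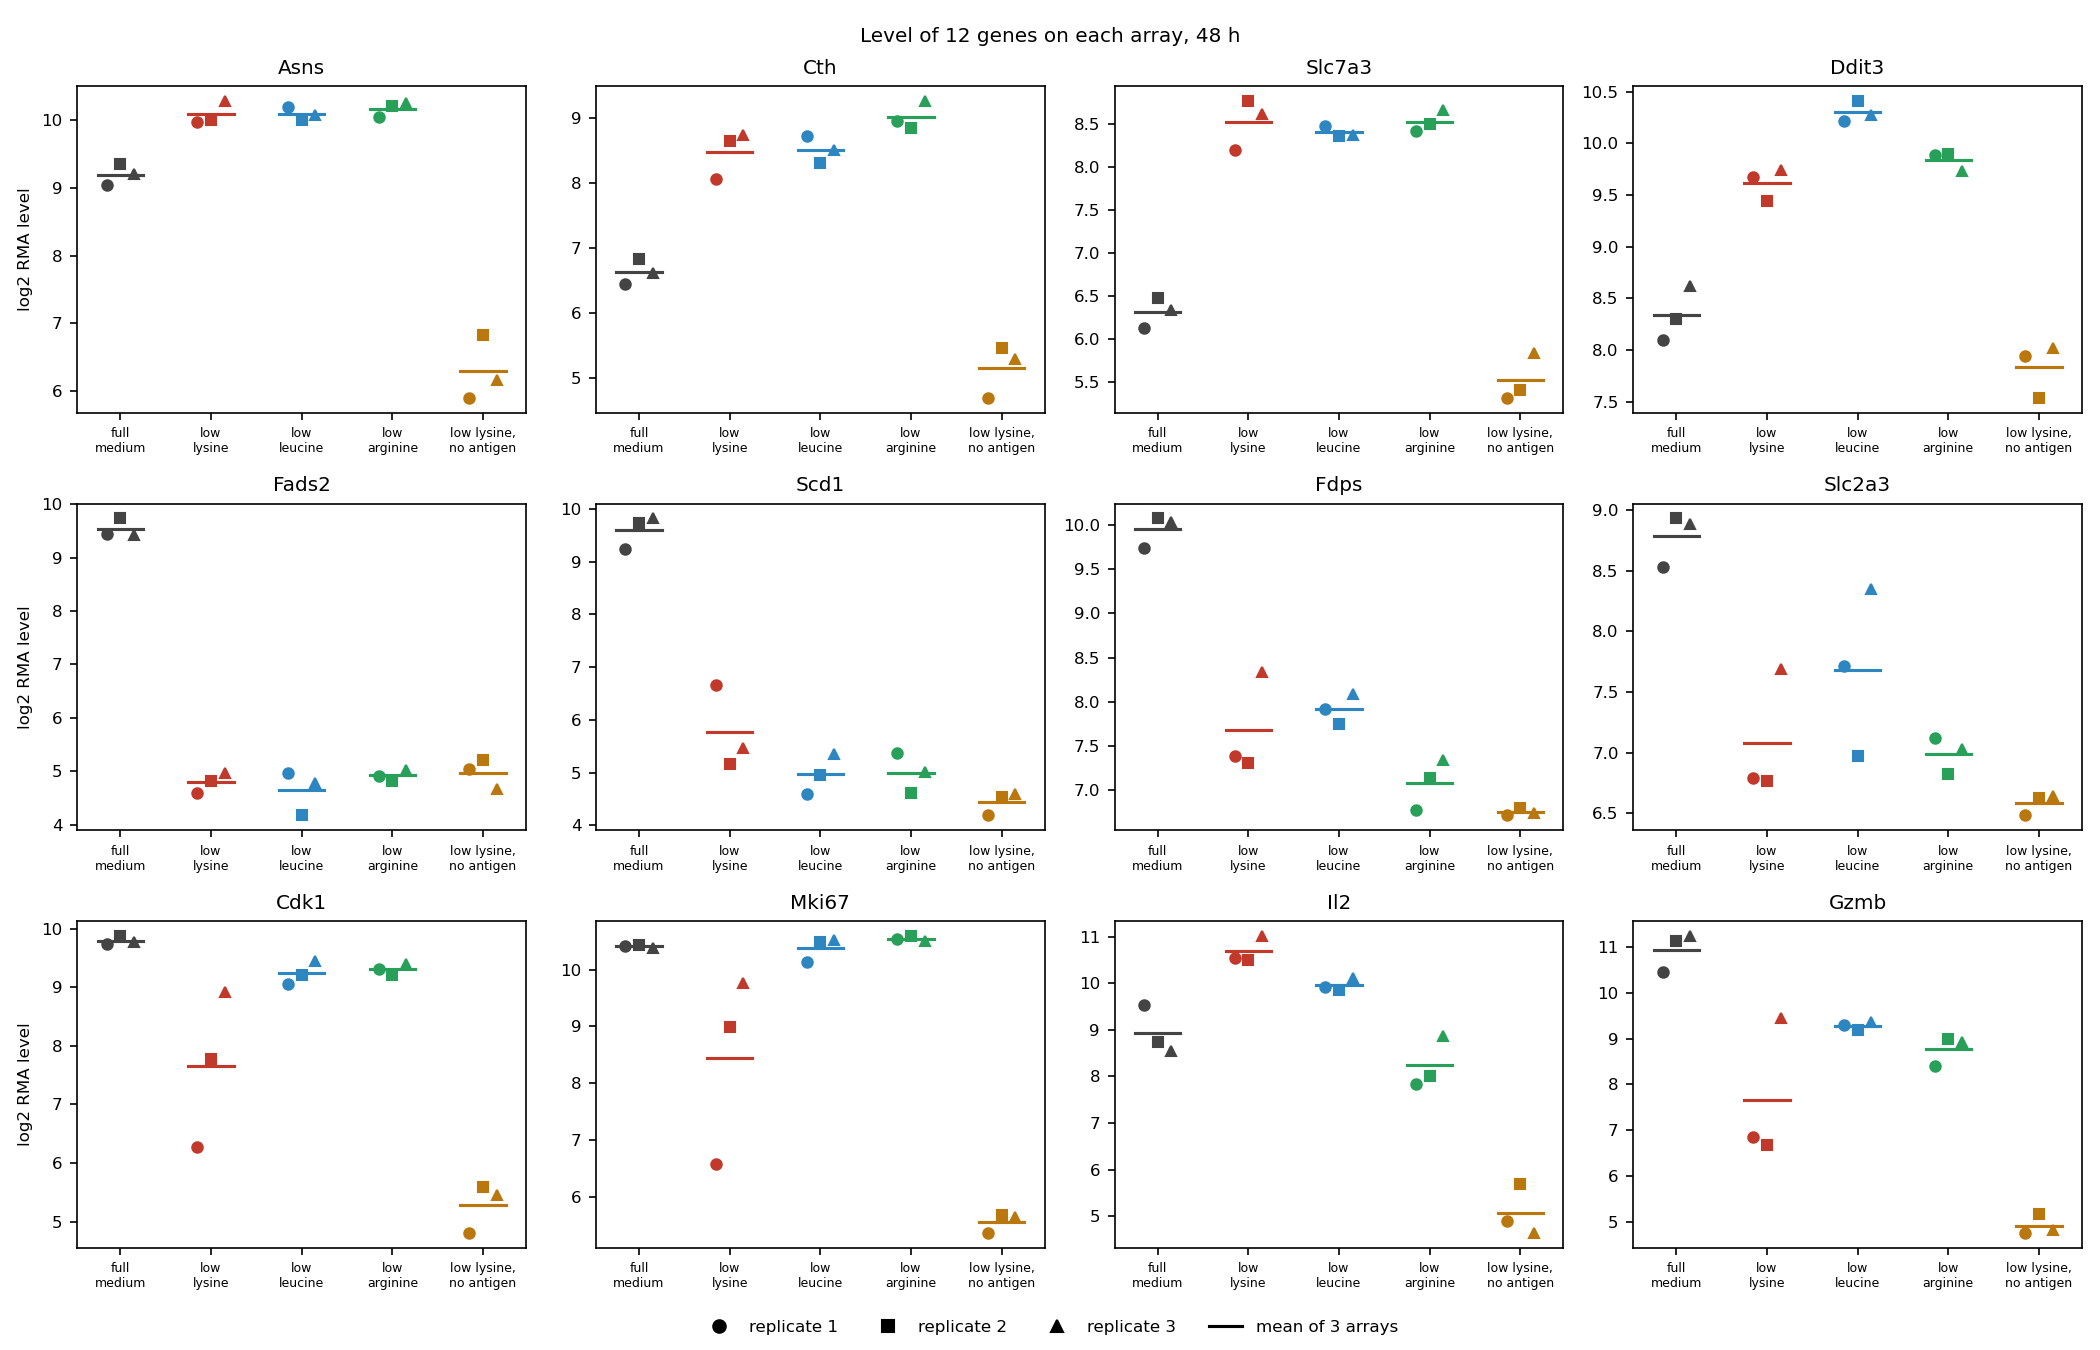
Log2 RMA level (y axis, a range of its own in each panel) of 12 genes on each 48 h array, with 1 point for each array and a bar at the mean of 3. Slc7a3, Cth and Ddit3 are higher and Fads2, Scd1 and Fdps lower on all 3 low lysine arrays than on any full medium array, while Cdk1 and Mki67 differ widely between the low lysine arrays.

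Glycolysis genes fell as a group, less evenly. Of 17 genes 11 fell and 0 rose, with a median of -0.68. List levels were 9.02, 9.15 and 9.20 in full medium and 8.24, 8.27 and 8.72 in low lysine, with replicate 3 nearest to full medium. Slc2a3, a high-affinity glucose transporter, had levels of 8.54, 8.93 and 8.89 in full medium and 6.79, 6.76 and 7.69 in low lysine, a difference of -1.71 ± 0.32 (SE, adjusted p = 0.00208). Pfkl and Pfkm, which encode phosphofructokinase subunits, differed by -1.06 ± 0.18 (SE, adjusted p = 0.00114) and -1.13 ± 0.23 (SE, adjusted p = 0.00317). Slc16a3, a lactate exporter, differed by -1.28 ± 0.31 (SE, adjusted p = 0.0106), and Hk2, a hexokinase, by -0.66 ± 0.20 (SE, adjusted p = 0.0383). The number of glycolysis genes called lower was 7 and 6 without full medium replicates 2 and 3, and 5 and 7 without low lysine replicates 1 and 2. Of 18 hypoxia targets 7 fell and 1, Bhlhe40 (0.45), rose (38.9% and 5.56%, against 6.24% and 2.49% of all genes). Egln3, a prolyl hydroxylase that targets the hypoxia factor HIF, went from 9.97, 10.26 and 10.29 to 7.29, 8.03 and 9.09, a difference of -2.04 ± 0.33 (SE, adjusted p = 0.000608). Bnip3, a mitophagy receptor, Ak4, a mitochondrial adenylate kinase, and Pdk1, a kinase that holds pyruvate out of mitochondria, had differences of -1.54, -1.43 and -0.97. Without full medium replicate 2 or low lysine replicate 1, 4 of the 18 were called lower, as with quantile normalization. Slc16a3 (-1.21 to -1.18, adjusted p 0.0515 to 0.0584) was not called without low lysine replicate 1 or 2 or full medium replicate 2 or 3. Hk2 (-0.68 to -0.51, adjusted p 0.0759 to 0.184) and Bhlhe40 (0.38 to 0.50, adjusted p 0.0785 to 0.19) were not called without any 1 of the arrays other than low lysine replicate 3. Hk2 (adjusted p = 0.295) was not called with quantile normalization.

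Of 17 nucleotide synthesis genes 7 fell and 0 rose (list level 9.08, 9.09 and 9.09 in full medium, 8.59, 8.42 and 8.93 in low lysine), among them the pyrimidine enzymes Cad (-0.77 ± 0.17, SE, adjusted p = 0.00664), Umps (-0.76 ± 0.17, SE, adjusted p = 0.00739) and Dhodh (-0.69 ± 0.15, SE, adjusted p = 0.00489). The count was 4 without full medium replicate 1 or 2, 3 and 2 without low lysine replicates 1 and 2, 11 without replicate 3, and 2 lower with 1 higher under quantile normalization. Umps (-0.51, adjusted p = 0.0639) was not called without low lysine replicate 2. Dhodh (adjusted p = 0.0983) was not called with quantile normalization. Of 20 respiratory chain genes 4 fell: Uqcrfs1 (-0.72), Cyc1 (-0.57), Ndufa4 (-0.52) and Ndufs1 (-0.48). The share lower was 20.0%, against 6.24% of all genes. None of the respiratory chain genes was called without full medium replicate 3, without low lysine replicate 1 or 2, or under quantile normalization, 1 was called without full medium replicate 1 or 2, and 10 without low lysine replicate 3. Of 29 ribosome biogenesis genes 2 fell, Rrp1b (-0.75) and Nop2 (-0.56), and of 20 translation factors 1 rose, Eif3c (0.39 ± 0.08, SE, adjusted p = 0.00505). The shares were 6.9% lower and 5.0% higher, against 6.24% and 2.49% of all genes. Without low lysine replicate 1 or 2 neither ribosome biogenesis gene was called, and without replicate 3 the list had 7 lower genes. Myc, the transcription factor that drives growth of activated T cells, had levels of 10.32, 10.35 and 10.63 in full medium and 10.33, 10.40 and 10.49 in low lysine. Its difference was -0.03 ± 0.11 (SE, adjusted p = 0.894), and the groups overlapped.

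Genes of mitosis were lower in low lysine on every array, but by very different amounts. Of 43 genes of G2/M and mitosis, 43 fell, with a median of -1.73. The mean level of the list was 8.74, 8.88 and 8.79 in full medium and 6.09, 7.05 and 8.02 in low lysine replicates 1, 2 and 3. Replicate 1 came closest to the cells that had no antigen in low lysine medium (5.62, 5.71 and 5.68), replicate 3 was nearest to full medium, and replicate 2 lay between. On each of the 3 arrays all 43 members lay below the full medium range. Over all 22180 genes, 7422, 7687 and 6667 lay below it on replicates 1, 2 and 3. Replicate 1 held the lowest value of the 3 for 42 of the 43 genes and replicate 3 the highest for all 43. The median member lay 2.68 below the full medium mean in replicate 1, 1.77 below in replicate 2 and 0.78 below in replicate 3. In replicate 1, 18 of the 43 were at or below the highest array without antigen, against 6 in replicate 2 and 1 in replicate 3. Over all 22180 genes these counts were 15636, 15220 and 15301. Without low lysine replicate 1, 28 of the 43 were called. The SD of the list level was 0.97 in low lysine, against 0.07 in full medium, 0.18 in low leucine and 0.11 in low arginine. The SE of a division gene is shared over all groups. It therefore understates the spread of such genes among the low lysine arrays, and their p-values may be too small.

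Cdk1, the kinase that starts mitosis, had levels of 9.74, 9.88 and 9.77 in full medium and 6.27, 7.78 and 8.91 in low lysine, a difference of -2.14 ± 0.44 (SE, adjusted p = 0.00393). Mki67, a proliferation marker, went from 10.42, 10.44 and 10.38 to 6.58, 8.99 and 9.76, a difference of -1.97 ± 0.49 (SE, adjusted p = 0.0144). Replicate 1 lay closer to the level without antigen (5.37, 5.68 and 5.64) than to full medium, and replicates 2 and 3 closer to full medium. Hmmr, a spindle protein, differed by -2.46 ± 0.44 (SE, adjusted p = 0.00141), and Birc5, the survivin gene, by -2.26 ± 0.43 (SE, adjusted p = 0.00209). Ube2c, which works with the anaphase-promoting complex, differed by -2.30 ± 0.52 (SE, adjusted p = 0.00713), and Ccnb2, a mitotic cyclin, by -2.29 ± 0.42 (SE, adjusted p = 0.00153). Mki67 (-1.95 to -1.03, adjusted p 0.0515 to 0.0844) was not called without low lysine replicate 1 or full medium replicate 2. Ube2c (-1.48, adjusted p = 0.0575) was not called without low lysine replicate 1.

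Many mitotic promoters carry a CCAAT box with a cell cycle homology region, TTTGAA, close to the start site. Of the 43 genes 35 had a RefSeq promoter (37 promoters). TTTGAA was present within 250 bases before the start in 13 of them (35.1%) and CCAAT in 28 (75.7%), against 16.0% and 33.8% of all promoters, on either strand. The list was drawn up from genes known for mitosis and all 43 were called, so these shares describe the list. The windows show TTTGAA or its reverse complement in capitals for 4 members that share it near the start site.
Cdk1, chr10:69352913-69352967, minus strand: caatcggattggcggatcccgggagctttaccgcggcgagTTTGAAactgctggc
Cdc20, chr4:118437344-118437401, minus strand: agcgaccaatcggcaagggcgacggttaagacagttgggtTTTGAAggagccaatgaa
Ube2c, chr2:164769860-164769928, plus strand: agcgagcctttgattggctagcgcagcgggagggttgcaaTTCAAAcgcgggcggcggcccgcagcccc
Kif11, chr19:37376323-37376381, plus strand: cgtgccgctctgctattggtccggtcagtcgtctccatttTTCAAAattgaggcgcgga
The element ends 10 bases before the start site in Cdk1, 13 in Cdc20, 24 in Ube2c and 14 in Kif11.

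**Figure D3:**
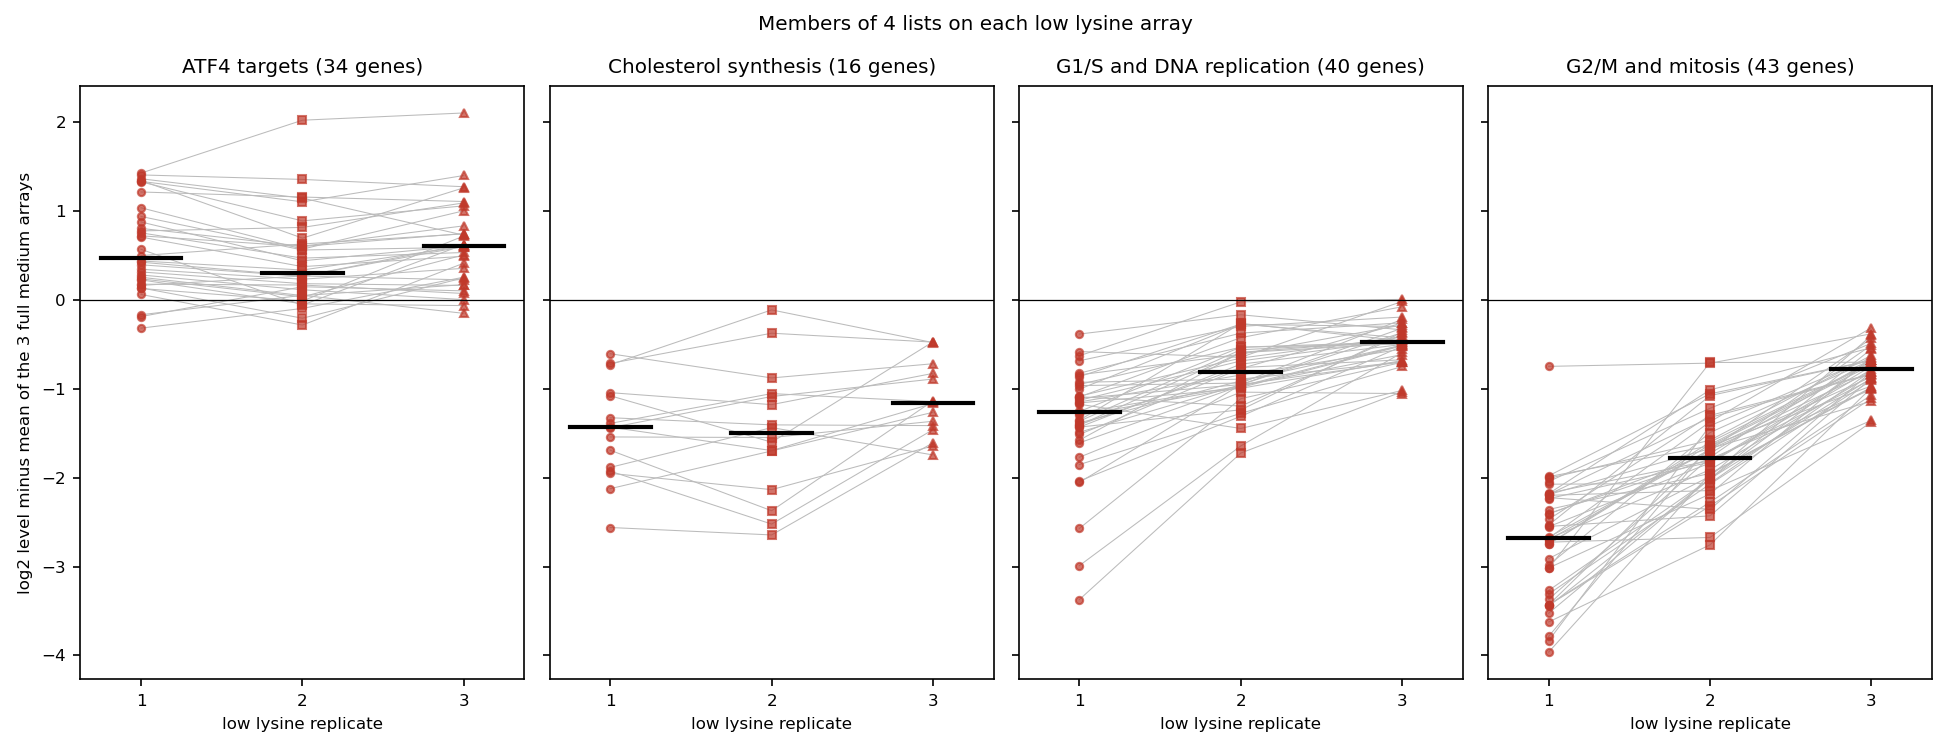
Log2 level of each list member on each low lysine array minus its mean over the 3 full medium arrays (y axis), with thin lines joining the same gene and black bars at the median of the list. The G2/M medians are -2.68, -1.77 and -0.78 on the 3 arrays, against 0.47, 0.30 and 0.60 for ATF4 targets and -1.44, -1.49 and -1.16 for cholesterol genes.

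DNA replication genes followed the same order of arrays with smaller changes. Of 40 genes of G1/S and DNA replication 30 fell and 0 rose, with a median of -0.86, and list levels were 8.80, 8.86 and 8.90 in full medium and 7.50, 8.05 and 8.37 in low lysine. Replicate 1 was the lowest of its group for 37 of the 40. E2f8, a late E2F repressor, had levels of 8.76, 8.94 and 8.91 in full medium and 5.5, 7.15 and 7.84 in low lysine, a difference of -2.04 ± 0.37 (SE, adjusted p = 0.00141). Rrm2, a ribonucleotide reductase subunit, differed by -1.74 ± 0.38 (SE, adjusted p = 0.00566), Mcm10, a replication factor, by -1.29 ± 0.27 (SE, adjusted p = 0.00438), and Cdc6, which loads the replicative helicase, by -1.46 ± 0.39 (SE, adjusted p = 0.0195). Mcm5, a helicase subunit, had a difference of -0.53 ± 0.19 (SE, adjusted p = 0.0911) and did not pass. The list had 19 calls without full medium replicate 3, 15 without low lysine replicate 1 and 16 under quantile normalization. Of 14 replication-dependent histone genes 9 fell, with list levels of 7.59, 7.87 and 7.84 in full medium and 6.07, 6.40 and 6.93 in low lysine. The largest was H2bc12, at 9.20, 9.24 and 9.21 in full medium and 4.55, 4.75 and 8.09 in low lysine. Its difference was -3.42 ± 0.68 (SE, adjusted p = 0.00307), and replicate 3 lay far above the other two. Histone genes are near-identical copies, so which copy a probe set reads is uncertain. Of 17 G1 cyclins, kinases and inhibitors 4 fell, Cdc25a (-0.92), Cdkn2d (-0.89), Cdk4 (-0.65) and Ccnd3 (-0.60), and Ccnd2 rose (0.59). Shares were 23.5% lower and 5.88% higher, against 6.24% and 2.49% of all genes. Cdc6 (-1.48 to -0.91, adjusted p 0.0506 to 0.147) was not called without low lysine replicate 1 or full medium replicate 1, 2 or 3. Cdc25a (-0.66, adjusted p = 0.0889) was not called without low lysine replicate 1. Cdkn2d (-0.74, adjusted p 0.0564 to 0.0578) was not called without low lysine replicate 2 or full medium replicate 2. Cdk4 (-0.61 to -0.56, adjusted p 0.0552 to 0.0701) was not called without low lysine replicate 1 or 2. Ccnd3 (-0.62 to -0.52, adjusted p 0.0684 to 0.147) was not called without any 1 of the arrays other than low lysine replicate 3. The difference of Rrm2 was -1.12 without low lysine replicate 1. Cdc25a (adjusted p = 0.0536) and Ccnd3 (adjusted p = 0.222) were not called with quantile normalization.

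Other measures also differed between the low lysine arrays, not all in the order of the division genes. Of 12 B cell markers 6 rose and 0 fell, and the mean marker level was 5.52, 5.54 and 5.56 in full medium and 6.73, 6.06 and 5.79 in low lysine, highest in the replicate with the lowest division genes. Replicate 1 held the highest value of the 3 for 11 of the 12 markers. Cd79a, a B cell receptor chain, was at 5.69, 6.10 and 6.11 in full medium and 7.90, 6.73 and 6.31 in low lysine, and Ms4a1, the gene of CD20, at 4.74, 5.19 and 5.01 in full medium and 6.85, 5.55 and 5.19 in low lysine. The largest of the 6 rises was that of Fcer2a (1.30 ± 0.20, SE, adjusted p = 0.000382). Its call held with each of the 6 arrays left out and under quantile normalization. The B cell marker levels were 5.58 to 5.68 in low leucine, 5.61 to 5.89 in low arginine and 5.79 to 6.0 in low lysine without antigen. The number called was 3 without full medium replicate 1 or with quantile normalization and 1 without full medium replicate 2 or 3 or low lysine replicate 1. Genes for olfactory, vomeronasal, trace amine and taste receptors, a group added after the values were seen and not known for a role in T cells, were also higher. Of 1447 such genes 98 were higher and 3 lower (6.77% and 0.207%), with a median of 0.21. Their mean level was 3.95, 3.91 and 3.82 in full medium, 4.19, 4.31 and 4.0 in low lysine and 4.31, 4.40 and 4.43 in low lysine without antigen. Of the 553 genes called higher, 98 were such receptors and 236 (42.7%) had a mean level under the median of all genes, against 102 (7.38%) of the 1383 lower genes. The standard deviation of levels over all genes was 1.73, 1.71 and 1.84 in low lysine, 1.87 to 1.92 in full medium and 1.53 to 1.58 in low lysine without antigen. The receptor mean and this standard deviation were farthest from full medium in replicate 2, while the division genes were farthest in replicate 1. The part of these measures in the fall of the division genes was not tested. Without low lysine replicate 3 the receptor group had 200 higher genes, and it had 29 without replicate 1, 19 without replicate 2, 39 and 23 without full medium replicates 2 and 3, and 41 under quantile normalization.

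**Figure D4:**
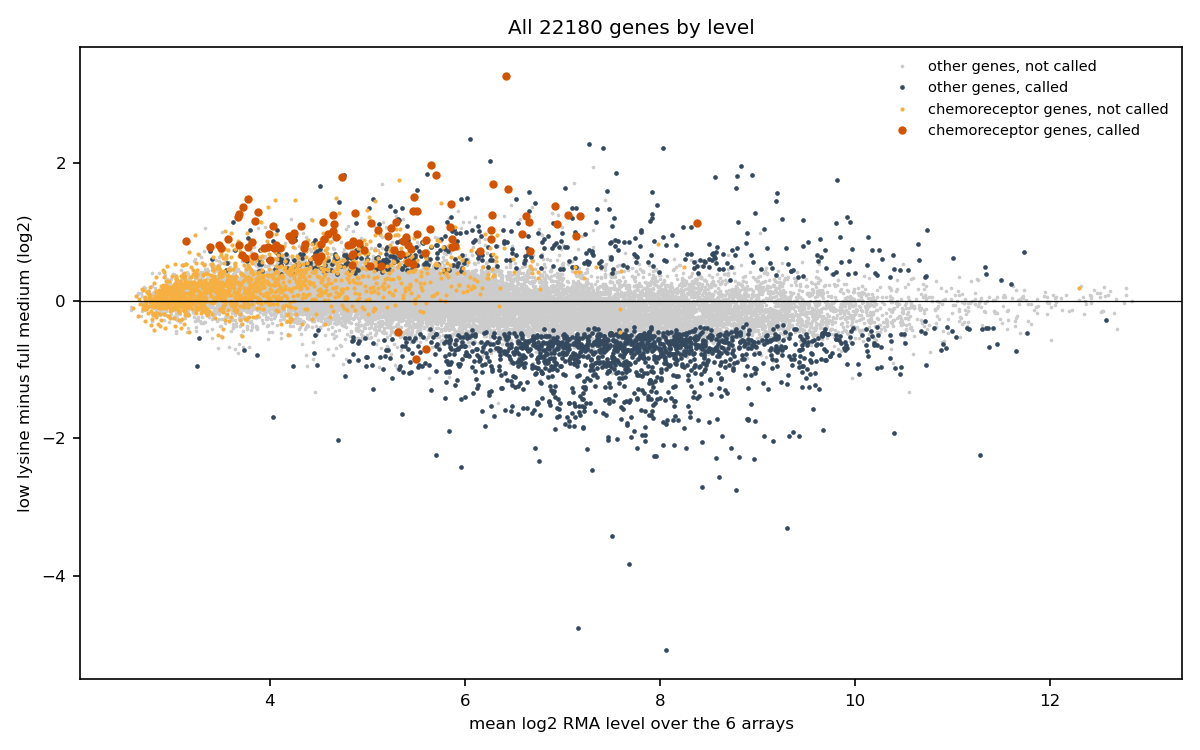
Difference between low lysine and full medium (log2, y axis) against mean log2 RMA level over the 6 arrays (x axis) for 22180 genes, with the 1447 chemoreceptor genes in orange. The 98 chemoreceptor genes called higher lie mostly at low levels, whereas the deepest falls lie at middle to high levels.

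Most genes of the T cell activation list did not pass the test: 2 of 26 were higher, 3 were lower (7.69% and 11.5%, against 2.49% and 6.24% of all genes) and 21 were not called, and with quantile normalization 5 were higher and 3 lower. The list median was 0.03, against 0.02 over all genes, with list levels of 9.25, 9.34 and 9.39 in full medium and 9.12, 8.96 and 9.40 in low lysine against 6.78, 6.72 and 6.74 without antigen. Cd69, an early activation marker, had levels of 9.39, 9.30 and 9.46 in full medium and 10.48, 10.35 and 10.73 in low lysine and rose by 1.14 ± 0.13 (SE, adjusted p = 5.61e-06), with all 3 low lysine arrays above full medium. Irf4, which tracks the strength of receptor signals, rose by 0.73 ± 0.13 (SE, adjusted p = 0.00119). Gzmb, the cytotoxic protease granzyme B, was at 10.47, 11.14 and 11.25 in full medium and 6.84, 6.68 and 9.45 in low lysine, a difference of -3.30 ± 0.46 (SE, adjusted p = 0.000122). Irf8, a transcription factor, showed the same pattern, at 10.13, 10.28 and 10.50 in full medium and 7.82, 7.15 and 10.05 in low lysine with a difference of -1.97 ± 0.42 (SE, adjusted p = 0.00524). For both genes replicate 3 stood far above replicates 1 and 2. Tfrc, the transferrin receptor that brings in iron, differed by -0.83 ± 0.18 (SE, adjusted p = 0.00524). Il2ra, the high-affinity IL-2 receptor chain induced by antigen, was at 11.25, 11.19 and 11.38 in full medium and 11.29, 11.37 and 11.29 in low lysine against 5.63, 5.85 and 5.87 without antigen, with overlapping groups and a difference of 0.04 ± 0.13 (SE, adjusted p = 0.879). 

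Among 22 helper cytokine genes 6 rose and 3 fell (27.3% and 13.6%, against 2.49% and 6.24% of all genes). Il2, the growth factor made early after activation, had levels of 9.54, 8.74 and 8.55 in full medium and 10.55, 10.51 and 11.02 in low lysine, a rise of 1.75 ± 0.29 (SE, adjusted p = 0.000643) or 3.36-fold. Tnfsf8, the CD30 ligand, rose by 1.13 ± 0.15 (SE, adjusted p = 5.38e-05), and Csf2, the gene of GM-CSF, by 0.98 ± 0.25 (SE, adjusted p = 0.0158). The other 3 risen genes were Tnfsf11, the RANK ligand (0.84), Il9 (0.59) and Tnf (0.53). Ifng, the Th1 cytokine, was at 6.43, 6.64 and 7.22 in full medium and 4.63, 5.05 and 6.77 in low lysine and fell by 2.42-fold, but replicate 3 lay within the full medium range. Osm (-0.89) and Lif (-0.72), cytokines of the IL-6 family, fell as well. Of 17 chemokine and chemokine receptor genes Ccr8, a receptor of Th2 and regulatory cells, rose from 8.40, 8.32 and 8.51 to 10.05, 9.80 and 10.10 (1.57 ± 0.22, SE, adjusted p = 0.00014), while Cxcr3, a Th1 receptor (-0.82 ± 0.19, SE, adjusted p = 0.00722), and Ccl22 (-1.45 ± 0.31, SE, adjusted p = 0.00561) fell. Of the chemokine and chemokine receptor list 5.88% were higher and 11.8% lower, against 2.49% and 6.24% of all genes. The number of cytokine genes called higher was 4 under quantile normalization and 3 without full medium replicate 3. Csf2 (0.85 to 0.89, adjusted p 0.0803 to 0.0891) was not called without low lysine replicate 2 or full medium replicate 3. Il9 (0.33 to 0.64, adjusted p 0.0694 to 0.268) and Lif (-0.77 to -0.57, adjusted p 0.053 to 0.169) were not called without any 1 of the arrays other than low lysine replicate 3. Tnf (0.48 to 0.58, adjusted p 0.0731 to 0.12) was not called without any 1 of the 6 arrays. Ifng (-1.34 to -0.85, adjusted p 0.0822 to 0.214) was not called without low lysine replicate 1 or 2 or full medium replicate 2 or 3. Ccl22 (-1.14, adjusted p = 0.0502) was not called without low lysine replicate 2. The difference of Ifng was -1.92 without low lysine replicate 3. Csf2 (adjusted p = 0.0613), Il9 (adjusted p = 0.141), Ifng (adjusted p = 0.0608) and Lif (adjusted p = 0.179) were not called with quantile normalization.

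Receptors for cytokines mostly fell where they changed. Of 16 interleukin and common gamma receptor genes 5 fell and 1, Il6st, the shared chain of IL-6 family receptors, rose (0.74). That is 31.2% lower and 6.25% higher, against 6.24% and 2.49% of all genes. Il2rb, the signalling chain for IL-2 and IL-15, had levels of 10.96, 10.90 and 11.12 in full medium and 9.93, 9.61 and 10.23 in low lysine, a difference of -1.06 ± 0.20 (SE, adjusted p = 0.0017). Ifngr1, an interferon gamma receptor chain, was at 9.23, 9.28 and 9.30 in full medium and 8.36, 8.58 and 8.31 in low lysine, a difference of -0.85 ± 0.12 (SE, adjusted p = 0.000172). Il10ra, Il18r1 and Il7r had differences of -1.01, -0.79 and -0.73. In the JAK-STAT and SOCS list of 15 genes Socs3, a feedback inhibitor, fell from 8.40, 8.55 and 8.46 to 6.83, 6.75 and 7.57 (-1.42 ± 0.20, SE, adjusted p = 0.00012), Socs1 (-0.57) and Stat4 (-0.54) fell, and Jak2, a receptor kinase, rose from 9.71, 9.63 and 9.65 to 10.56, 10.76 and 10.46 (0.93 ± 0.10, SE, adjusted p = 5.89e-06). Of the JAK-STAT and SOCS list 6.67% were higher and 20.0% lower, against 2.49% and 6.24% of all genes. Il10ra (-0.85 to -0.84, adjusted p 0.0611 to 0.0648) was not called without low lysine replicate 2 or full medium replicate 3. Il7r (-0.66 to -0.48, adjusted p 0.0993 to 0.231) was not called without low lysine replicate 1 or 3 or full medium replicate 2 or 3. Socs1 (-0.61 to -0.44, adjusted p 0.066 to 0.218) was not called without any 1 of the arrays other than low lysine replicate 3. Stat4 (-0.52 to -0.44, adjusted p 0.081 to 0.127) was not called without low lysine replicate 1 or 2 or full medium replicate 2 or 3. The difference of Il7r was -1.10 without low lysine replicate 2. Il7r (adjusted p = 0.217), Socs1 (adjusted p = 0.24) and Stat4 (adjusted p = 0.102) were not called with quantile normalization.

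Of 21 inhibitory receptor and anergy genes 4 rose and 0 fell (19.0% higher, against 2.49% of all genes). They were Cd200 (0.93 ± 0.16, SE, adjusted p = 0.000946), Btla (0.87 ± 0.15, SE, adjusted p = 0.000794) and Lag3 (0.85 ± 0.20, SE, adjusted p = 0.00865), surface molecules that restrain immune cells, and Tox, a transcription factor of exhausted cells (0.56 ± 0.15, SE, adjusted p = 0.0231). Btla was at 6.87, 7.17 and 7.27 in full medium and 8.0, 8.16 and 7.77 in low lysine. Of 22 genes of naive and quiescent cells Bach2 (0.60) and Slfn2 (0.56) rose, and Il7r and Slfn1 (-0.58) fell, and under quantile normalization 4 rose and none fell. Klf2, a quiescence factor, had levels of 7.27, 7.17 and 7.17 in full medium and 7.48, 7.48 and 7.25 in low lysine against 8.50, 8.57 and 8.80 without antigen, and its difference of 0.20 ± 0.19 (SE, adjusted p = 0.536) did not pass. Among 13 lineage regulators Tbx21, the Th1 regulator T-bet (-0.91), and its relative Eomes (-0.96) fell and Bhlhe40 rose. Of 14 regulatory T cell genes 1 fell, Capg (-0.57), or 7.14% against 6.24% of all genes lower. Shares higher and lower were 9.09% and 9.09% for the naive and quiescent list and 7.69% and 15.4% for the lineage regulators. Over all genes they were 2.49% and 6.24%. Lag3 (0.68 to 0.78, adjusted p 0.0508 to 0.0557) was not called without low lysine replicate 1 or full medium replicate 1. Tox (0.46 to 0.59, adjusted p 0.0582 to 0.103) and Bach2 (0.42 to 0.64, adjusted p 0.0518 to 0.185) were not called without low lysine replicate 1 or 2 or full medium replicate 1 or 2. Slfn1 (-0.58 to -0.43, adjusted p 0.0791 to 0.169) was not called without low lysine replicate 2 or full medium replicate 1 or 3. Tbx21 (-0.83 to -0.66, adjusted p 0.148 to 0.236) was not called without low lysine replicate 1 or 2 or full medium replicate 2 or 3. Capg (-0.56 to -0.46, adjusted p 0.054 to 0.107) was not called without low lysine replicate 2 or full medium replicate 2. The difference of Tbx21 was -1.37 without low lysine replicate 3. Slfn1 (adjusted p = 0.145), Tbx21 (adjusted p = 0.134) and Capg (adjusted p = 0.254) were not called with quantile normalization.

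Of 22 type I interferon response genes 8 fell and 0 rose, with list levels of 6.54, 6.36 and 6.59 in full medium and 6.18, 6.09 and 6.07 in low lysine, against 6.22, 6.14 and 6.22 without antigen. Stat2, which carries the interferon signal to the nucleus, was at 8.08, 8.12 and 8.32 in full medium and 6.80, 7.16 and 7.19 in low lysine, a difference of -1.13 ± 0.17 (SE, adjusted p = 0.000236). Rtp4 (-0.89 ± 0.20, SE, adjusted p = 0.00781), Xaf1 (-0.84 ± 0.17, SE, adjusted p = 0.00404) and Bst2, the virus tether tetherin (-0.94 ± 0.27, SE, adjusted p = 0.0343), also fell. The list had 2 calls without full medium replicate 3, 5 and 4 without low lysine replicates 1 and 2, and 3 under quantile normalization. Of 19 unfolded protein response genes 3 rose and 4 fell, with Atf6, a sensor of the endoplasmic reticulum, up (1.0 ± 0.17, SE, adjusted p = 0.000703), and Sdf2l1 (-0.97 ± 0.14, SE, adjusted p = 0.000229), Xbp1 (-0.94 ± 0.23, SE, adjusted p = 0.0116) and Pdia6 (-0.78 ± 0.23, SE, adjusted p = 0.0355) down. Of the unfolded protein response list 15.8% were higher and 21.1% lower, against 2.49% and 6.24% of all genes. With 1 array left out the list had 1 to 3 higher and 1 to 9 lower genes. Of 18 p53 targets Fas rose (0.54) and Sesn1 fell, and under quantile normalization 5 rose and none fell. In the main fit that is 5.56% higher and 5.56% lower, against 2.49% and 6.24% of all genes. Rtp4 (-0.79 to -0.77, adjusted p 0.0526 to 0.0555) and Xbp1 (-0.86 to -0.71, adjusted p 0.0615 to 0.0955) were not called without low lysine replicate 2 or full medium replicate 3. Bst2 (-0.89 to -0.70, adjusted p 0.111 to 0.203) was not called without low lysine replicate 1 or 2 or full medium replicate 2 or 3. Pdia6 (-0.83 to -0.49, adjusted p 0.0803 to 0.247) was not called without any 1 of the arrays other than low lysine replicate 3. Fas (0.46 to 0.58, adjusted p 0.0528 to 0.0948) was not called without low lysine replicate 1 or 3 or full medium replicate 1 or 3. Rtp4 (adjusted p = 0.0535), Bst2 (adjusted p = 0.244) and Pdia6 (adjusted p = 0.108) were not called with quantile normalization.

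Markers of other cells that could pass the sort were read in the same way. Of 13 CD4 T cell identity genes 1 fell, Thy1, a surface protein of T cells (11.31, 11.33 and 11.17 in full medium, 10.49, 10.62 and 10.66 in low lysine, -0.68 ± 0.12, SE, adjusted p = 0.0016). Of 26 macrophage markers 0 rose and 2 fell, Ccl6 (-1.08 ± 0.33, SE, adjusted p = 0.0454) and Cybb (-0.86 ± 0.22, SE, adjusted p = 0.0158), with mean levels of 6.58, 6.58 and 6.50 in full medium and 6.36, 6.54 and 6.10 in low lysine. Of 17 markers of alternatively activated macrophages 5 fell and Pdcd1lg2 rose (0.67), with mean levels of 6.09, 6.01 and 5.98 in full medium and 5.65, 5.84 and 5.48 in low lysine. The median difference of this list was 0.016, against 0.024 over all genes, and 11 of the 17 did not pass. The lower mean level therefore does not describe the typical marker. Arg1, the arginase that such macrophages make, went from 8.19, 7.84 and 7.41 to 6.12, 6.71 and 6.13 (-1.49 ± 0.24, SE, adjusted p = 0.000581), and Tgm2, a transglutaminase, from 9.52, 9.99 and 9.86 to 6.44, 7.29 and 7.50 (-2.71 ± 0.32, SE, adjusted p = 1.34e-05). Ccl22, Ccl17 (-0.78) and Cd209a (-0.57) were the other 3 that fell. Of 20 mesothelial and stromal markers 1 fell, Col1a2, at 7.36, 7.61 and 6.76 in full medium and 5.36, 6.73 and 5.06 in low lysine. Of 12 CD8 T and NK cell markers Cd8b1 rose (0.50) and Eomes fell, of 13 dendritic cell markers Ciita rose (0.59) and Bst2 and Cd209a fell, of 19 granulocyte and mast cell markers S100a8 fell (-0.76), and of 6 erythroid and platelet markers limma called 0, with 0 at an unadjusted p under 0.05. Shares lower were 7.69% for CD4 identity and for macrophage genes, 8.33% for CD8 T and NK, 5.26% for granulocyte and 5.0% for stromal markers. These lie near the 6.24% of all genes. They were 29.4% for alternatively activated macrophage and 15.4% for dendritic cell markers. The part of RNA from antigen-presenting or other cells in the differences was not tested. Ccl6 (-1.22 to -0.91, adjusted p 0.0682 to 0.169) was not called without any 1 of the arrays other than low lysine replicate 2. Cybb (-0.85 to -0.68, adjusted p 0.0527 to 0.059) was not called without low lysine replicate 3 or full medium replicate 1 or 3. Pdcd1lg2 (0.56 to 0.66, adjusted p 0.0694 to 0.134) was not called without low lysine replicate 1 or full medium replicate 1 or 2. Ccl17 (-0.66, adjusted p = 0.0838) was not called without full medium replicate 2. Cd209a (-0.57 to -0.52, adjusted p 0.0732 to 0.102) was not called without low lysine replicate 1 or full medium replicate 2 or 3. Col1a2 (-1.34, adjusted p 0.074 to 0.0745) and Ciita (0.50 to 0.56, adjusted p 0.0561 to 0.078) were not called without low lysine replicate 1 or full medium replicate 2. Cd8b1 (0.41 to 0.55, adjusted p 0.0745 to 0.156) was not called without any 1 of the arrays other than low lysine replicate 1. S100a8 (-0.75 to -0.61, adjusted p 0.0773 to 0.172) was not called without low lysine replicate 1 or 3 or full medium replicate 2 or 3. Ccl6 (adjusted p = 0.21), Cybb (adjusted p = 0.208), Cd209a (adjusted p = 0.305) and Col1a2 (adjusted p = 0.063) were not called with quantile normalization.

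The genes with the largest differences came partly from these lists. Of the 10 largest falls without overlap among genes with a symbol of their own, Kcnma1, a calcium-activated potassium channel, led with 11.01, 11.36 and 9.44 in full medium and 5.63, 5.49 and 5.44 in low lysine, a difference of -5.08 ± 0.41 (SE, adjusted p = 5.06e-08). Its low lysine levels overlapped with those in low leucine (5.54, 5.5 and 5.56) and low arginine (5.95, 5.43 and 5.72). Fads2, Scd1, H2bc12, Gzmb, Tgm2 and Hmmr, given above, were among the 10. The others were Mt2, a metal-binding metallothionein (9.43, 10.27 and 9.97 in full medium, 7.58, 6.65 and 7.75 in low lysine, -2.56 ± 0.28, SE, adjusted p = 5.15e-06), Gbp11, of the interferon-induced guanylate-binding family (7.38, 6.76 and 7.37 in full medium, 4.96, 4.87 and 4.42 in low lysine, -2.42 ± 0.24, SE, adjusted p = 1.35e-06), and Depdc1a, a division-linked gene (-2.33 ± 0.37, SE, adjusted p = 0.000562). Gbp11 has close relatives, so probe sets may read more than 1 of them.

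Among the 10 largest rises, chosen likewise, Slc7a3 and Cth stood with Tnfrsf19, a receptor of the TNF family, which went from 6.45, 5.90 and 6.07 to 8.56, 8.26 and 8.42 (2.27 ± 0.17, SE, adjusted p = 2.33e-08). Trat1, an adaptor of the T cell receptor complex, rose from 7.94, 7.82 and 7.88 to 9.68, 9.89 and 9.52 (1.82 ± 0.13, SE, adjusted p = 1.04e-08). Glce, an enzyme of heparan sulphate synthesis, rose from 7.51, 7.80 and 7.69 to 9.25, 9.88 and 9.25 (1.79 ± 0.16, SE, adjusted p = 2.26e-07). The other 5 were 3 olfactory receptor genes, Olfr68 (3.27), Olfr727 (1.97) and Olfr782 (1.83), the pseudogene Speer8-ps1 (1.82) and Pla2g10os, which its name places on the strand opposite Pla2g10 (1.82). Olfr68 was at 4.71, 5.06 and 4.62 in full medium, 8.19, 8.72 and 7.27 in low lysine and 6.97, 8.01 and 8.05 in low lysine without antigen. Pla2g10os was at 8.87, 7.88 and 7.36 in full medium, 10.06, 10.26 and 9.25 in low lysine and 11.09, 10.84 and 11.18 in low lysine without antigen. Speer8-ps1 was at 4.50, 3.67 and 3.38 in full medium, 5.87, 5.78 and 5.36 in low lysine and 6.70, 6.92 and 6.62 in low lysine without antigen. Olfactory receptor and pseudogene probe sets may read near-identical copies. Olfr727 (1.11 to 1.89, adjusted p 0.0542 to 0.0872) was not called without low lysine replicate 2 or full medium replicate 2. Olfr782 (1.44 to 1.59, adjusted p 0.1 to 0.12) was not called without low lysine replicate 2 or full medium replicate 3. Olfr782 (adjusted p = 0.0592) was not called with quantile normalization.

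Low lysine was next set against the other low media with antigen, to see which of these differences set it apart. These comparisons use the same 3 low lysine arrays as the comparison with full medium. Against low leucine 64 genes were higher and 352 lower (0.289% and 1.59%, 1.88% in all), and against low arginine 128 were higher and 587 lower (0.577% and 2.65%, 3.22% in all). The shares of higher genes were 15.4% and 17.9% of the calls, and 35.3% and 35.9% with quantile normalization. The submitters' numbers of the low media arrays were cut after 6, 12 and 18 into 3 runs. Each holds 1 array of each low medium with antigen (numbers 4, 5 and 6 in run 1, 10, 11 and 12 in run 2, and 16, 17 and 18 in run 3). The labels name no runs, and whether the arrays of a run were processed together is not known. Values within runs are given below on that reading. The counts moved with single arrays: against low leucine, 84, 97 and 1414 genes were called without low lysine replicates 1, 2 and 3, and 180, 177 and 100 without low leucine replicates 1, 2 and 3. Against low arginine, 360 and 459 were called without low lysine replicates 1 and 2, and 380, 403 and 329 without low arginine replicates 1, 2 and 3.

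Division genes were lower in low lysine than in both other media, but the counts rested on single arrays. Of the 43 G2/M genes 17 were lower than in low leucine and 35 lower than in low arginine, where list levels were 8.14, 8.37 and 8.48 and 8.55, 8.55 and 8.74. Without low lysine replicate 1, 0 of the 43 were called against low leucine and 11 against low arginine, without replicate 2 the counts were 2 and 26, and without replicate 3 they were 42 and 41. Without low leucine replicates 1, 2 and 3, 6, 3 and 1 were called, without low arginine replicates 1, 2 and 3, 22, 25 and 18, and with quantile normalization 7 against low leucine. The list mean of the low lysine array minus that of the low leucine array of the same run was -1.08, -0.35 and -2.39 in runs 1, 2 and 3, and minus that of the low arginine array -1.50, -0.53 and -2.65. All 6 differences were negative and the largest were in run 3, which holds low lysine replicate 1. Of the 40 DNA replication genes 2 were lower than in low leucine and 21 lower than in low arginine, and without low lysine replicate 1 the counts were 0 and 4. Against low arginine 7, 9 and 7 were called without low arginine replicates 1, 2 and 3, and against low leucine 11 without low lysine replicate 3, 1 without low leucine replicate 1 or 2 or with quantile normalization, and 0 without replicate 3. Ndc80, a kinetochore protein, had levels of 6.48, 7.40 and 8.98 in low lysine, 9.59, 9.74 and 9.76 in low leucine and 10.25, 10.42 and 10.42 in low arginine, with differences of -2.07 ± 0.40 (SE, adjusted p = 0.00798) and -2.74 ± 0.40 (SE, adjusted p = 0.000544). Kif11, a spindle motor, was at 5.67, 7.82 and 8.73 in low lysine, 9.03, 9.52 and 9.53 in low leucine and 9.85, 9.87 and 10.03 in low arginine, with differences of -1.95 ± 0.50 (SE, adjusted p = 0.0424) and -2.51 ± 0.50 (SE, adjusted p = 0.00549). Mki67, E2f8 and Lockd, a long noncoding RNA, differed from low leucine by -1.94, -1.87 and -1.93 (adjusted p = 0.0418, 0.00936 and 0.00344) and from low arginine by -2.10, -2.25 and -2.39 (adjusted p = 0.017, 0.00132 and 0.000287). Against low leucine, Ndc80 (-1.50 and -1.96, adjusted p 0.0526 to 0.0637) was not called without low lysine replicate 1 or 2, E2f8 (-1.76 and -1.20, adjusted p 0.0520 to 0.0614) without low lysine replicate 1 or low leucine replicate 3, and Kif11 and Mki67 without any 1 of the arrays other than low lysine replicate 3 (-2.16 to -1.09 and -2.22 to -1.01, adjusted p 0.0817 to 0.229 and 0.0751 to 0.203) or with quantile normalization (adjusted p = 0.0780 and 0.0814). Against low arginine, Mki67 (-2.12 to -1.17, adjusted p 0.0591 to 0.0851) was not called without low lysine replicate 1 or any 1 of the low arginine arrays, and Kif11 differed by -1.64 without low lysine replicate 1.

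Of the 22 helper cytokine genes 1 was higher and 1 lower in low lysine than in low leucine, and 4 were higher and 0 lower than in low arginine (18.2%, against 0.577% of all genes). Without low lysine replicate 3 the counts against low leucine were 2 higher and 3 lower. Il2 was at 10.55, 10.51 and 11.02 in low lysine, 9.92, 9.85 and 10.12 in low leucine and 7.83, 8.02 and 8.86 in low arginine. It was higher than in low arginine by 2.45 ± 0.29 (SE, adjusted p = 4.02e-05), and the difference from low leucine was 0.73 ± 0.29 (SE, adjusted p = 0.202). Il21, a cytokine of follicular helper cells, was at 6.05, 5.86 and 7.61 in low lysine, 9.79, 9.40 and 9.68 in low leucine, 7.19, 7.21 and 7.92 in low arginine and 7.01, 8.21 and 6.59 in full medium. Its difference from low leucine was -3.12 ± 0.37 (SE, adjusted p = 0.000238), while low lysine and full medium overlapped. Tnfsf11 was higher in low lysine than in low leucine (0.92, adjusted p = 0.0056) and than in low arginine (0.97, adjusted p = 0.00183). Genes outside the cytokine list also differed. Klk1, a kallikrein protease, was at 3.30, 4.15 and 3.62 in low lysine, 7.49, 5.37 and 6.49 in low leucine and 3.52, 4.06 and 3.51 in low arginine, with a difference from low leucine of -2.76 ± 0.45 (SE, adjusted p = 0.00253). Gbp11 differed from low arginine by -2.52 ± 0.24 (SE, adjusted p = 5.26e-06), at levels of 4.96, 4.87 and 4.42 in low lysine and 7.40, 7.06 and 7.34 in low arginine. Olfr68 was higher than in low leucine by 2.51 ± 0.47 (SE, adjusted p = 0.00659), but was not called without low lysine replicate 2 or low leucine replicate 3 (2.18 and 2.30, adjusted p = 0.0551 and 0.0512). Tnfsf11 was chosen after its values were seen, and the other genes compared between low media by the size of their difference or from the lists.

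**Figure D5:**
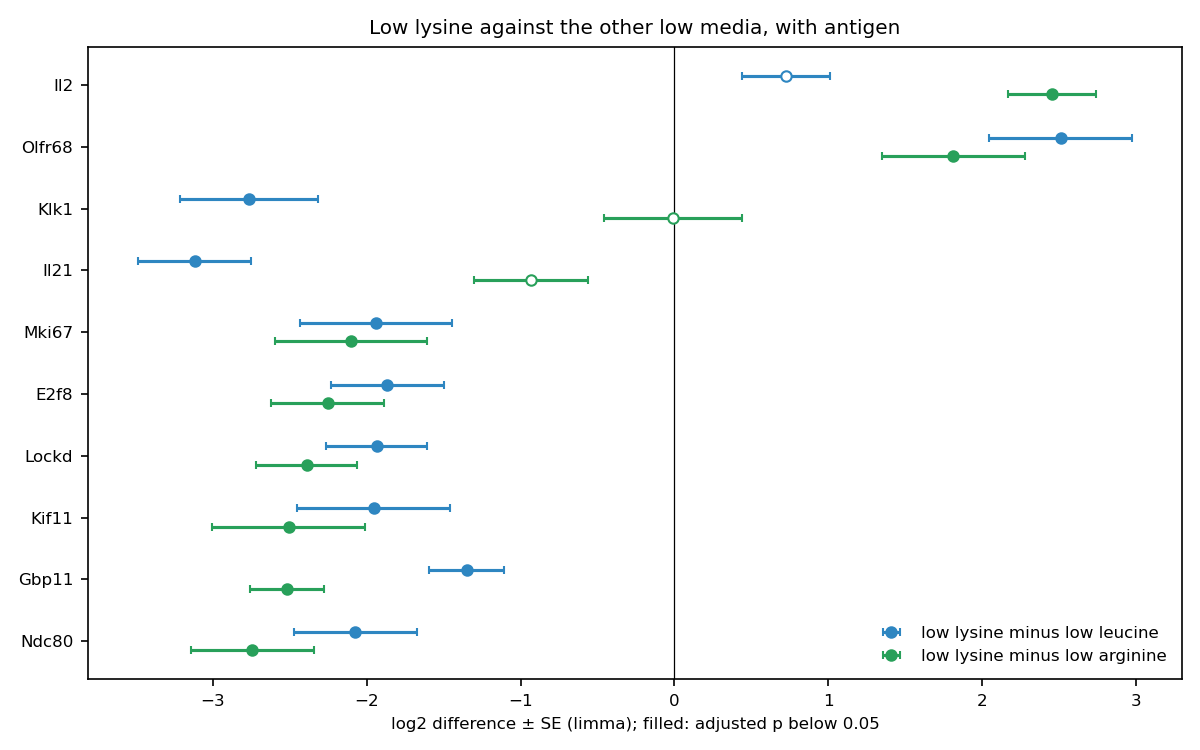
Log2 difference ± SE (x axis) between low lysine and low leucine (blue) and between low lysine and low arginine (green), all with antigen and 3 arrays a group, for the genes with the 6 largest called differences in each comparison. Filled points are called. Ndc80, Kif11, Lockd, E2f8 and Mki67 are lower in low lysine than in both other media, and Il2 is higher than in low arginine.

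The metabolic lists had fewer calls between the low media than against full medium. Of the 34 ATF4 targets 0 were higher and 2 lower in low lysine than in low leucine, and 0 higher and 5 lower than in low arginine (3 without any 1 of the arrays other than low lysine replicate 3). The shares lower were 5.88% and 14.7%, against 1.59% and 2.65% of all genes. List levels were 8.25, 8.15 and 8.24 in low leucine and 8.38, 8.39 and 8.53 in low arginine. Nupr1 was lower in low lysine (8.29, 7.85 and 8.02) than in low leucine (9.07, 9.11 and 8.92, -0.98 ± 0.18, SE, adjusted p = 0.0056) and in low arginine (10.26, 9.95 and 9.85, -1.97 ± 0.18, SE, adjusted p = 3.36e-06). The difference of Ddit3 from low leucine was -0.68 ± 0.17 (SE, adjusted p = 0.0386), and it was not called without any 1 of the 6 arrays other than low lysine replicate 3 (-0.72 to -0.59, adjusted p 0.0818 to 0.183). With quantile normalization neither Nupr1 nor Ddit3 was called against low leucine (adjusted p = 0.0814 and 0.109). Slc7a3 differed from low leucine by 0.13 (adjusted p = 0.745) and Asns from low arginine by -0.08 (adjusted p = 0.918), with arrays of 8.48, 8.36 and 8.38 for Slc7a3 in low leucine and 10.05, 10.21 and 10.26 for Asns in low arginine. Of 16 cholesterol genes none was called against low leucine and 1, Hmgcs1, was higher than in low arginine (0.82 ± 0.16, SE, adjusted p = 0.00421). Insig1 was higher in low lysine than in low leucine (1.0 ± 0.16, SE, adjusted p = 0.00253) and low arginine (0.80 ± 0.16, SE, adjusted p = 0.00623), so its fall from full medium was the smallest of the 3 low media, at -1.71 against -2.71 and -2.52. Fads2 and Scd1 differed from low leucine by 0.15 and 0.80 and from low arginine by -0.13 and 0.77, none of them called. Egln3 was higher than in low arginine, at 7.29, 8.03 and 9.09 against 5.96, 6.0 and 6.26 (2.06 ± 0.33, SE, adjusted p = 0.00123).

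Antigen still had a large effect in low lysine. Against cells in low lysine without antigen, 4086 genes were higher and 2798 lower (18.4% and 12.6%, 31.0% in all), with a median of -0.09 over all genes. The share of higher genes was 59.4% of the calls, 49.1% with quantile normalization and 79.0% with arrays centred. Of 26 T cell activation genes 24 were higher and 1 lower, and of 34 ATF4 targets 29 were higher and 0 lower. Il2 rose from 4.90, 5.68 and 4.64 to 10.55, 10.51 and 11.02 (5.61 ± 0.29, SE, adjusted p = 9.62e-13), and Cd69 from 5.78, 6.02 and 5.99 to 10.48, 10.35 and 10.73 (4.59 ± 0.13, SE, adjusted p = 1.46e-17). Gzmb, at 4.75, 5.16 and 4.82 without antigen and 6.84, 6.68 and 9.45 with it, rose by 2.74 ± 0.46 (SE, adjusted p = 6.57e-05), most in replicate 3. Of 40 DNA replication genes 36 were higher with antigen and of 43 G2/M genes 33 were higher and 1 lower, a count of 22 higher without low lysine replicate 3 with antigen. Cdk1 rose from 4.81, 5.59 and 5.45 to 6.27, 7.78 and 8.91 (2.37 ± 0.44, SE, adjusted p = 0.000211). Of 16 cholesterol genes 9 and of 17 glycolysis genes 12 were higher and none lower, while Fads2 differed by -0.19 ± 0.21 (SE, adjusted p = 0.531).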

How the data were processed

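RNA of sorted CD4+ T cells was hybridised to 1-colour Mouse Gene 2.0 ST arrays, 23 of them at 48 h. The 9 arrays at 72 h on another platform were not used. The deposited values are log2 levels; the submitters' processing notes name RMA and Affymetrix Expression Console 1.1 for them; background and summarization settings are not given in the sources used here, and no detection calls were used. Of 41345 probe sets, 23521 named 1 gene in the platform annotation, 1814 several and 16010 none, and for each of 22180 genes the probe set with the highest mean was kept.

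All 8 groups of the 48 h platform entered 1 limma fit (limma 3.58.1, R 4.3.3, 15 residual degrees of freedom, moderated variances with an intensity trend), and p-values were adjusted by Benjamini-Hochberg over all genes and called below 0.05. On data simulated for the main comparison with 22180 genes, 35.5%, 83.9% and 99.4% of genes changed by 1.5-, 2- and 4-fold were recovered, with 6.2 false calls on average. The simulation gave each gene 1 spread in all groups and noise independent between genes. The low lysine arrays varied more than the full medium arrays and together over many genes, so these figures may not hold for the measured arrays. The number of arrays limits the precision. The comparison, the members and the gene lists were chosen with earlier results of these data known. Named were the 10 largest called rises and falls without overlap among genes with a symbol of their own, up to 4 called members a list, fixed genes, and the 6 largest differences from each other low medium; further called members of a list were chosen after their values were seen. Same-numbered arrays of low lysine and full medium correlated by 0.03, -0.16 and 0.12 in their deviations, so the numbers were not taken to pair them. Alternatives covered the arrays in the fit, blocks, quantile normalization, centring, a filter on level, probe sets, the variance model and each array left out. Promoters (250 bases before the start) came from RefSeq, GRCm38.p6, matched by symbol.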

Additional observations from a re-analysis of the deposited data

Results flagged for a closer look

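The effect of antigen, that is the difference between arrays with and without antigen in the same medium, differed between low lysine and another low medium for 7 of the genes named, by a test of the difference itself (limma interaction term, Benjamini-Hochberg over all genes). The groups without antigen had 3 arrays in low lysine and in low leucine but 2 in low arginine, on which 6 of the 7 differences rest. Il21, the follicular helper cytokine, rose with antigen by 1.62 in low lysine and 4.62 in low leucine, a difference of -3.00 ± 0.52 (SE, adjusted p = 0.0248). Against low arginine, the antigen effect on Il2 was larger in low lysine, 5.61 against 2.85, a difference of 2.76 ± 0.43 (SE, adjusted p = 0.00617). Hmgcs1, the sterol enzyme, had effects of 1.58 and 0.32, a difference of 1.26 ± 0.24 (SE, adjusted p = 0.0273). Smaller antigen effects in low lysine were found for 4 genes. Ndc80, of the kinetochore, had effects of 1.98 in low lysine and 5.42 in low arginine, a difference of -3.44 ± 0.60 (SE, adjusted p = 0.0170). For the noncoding RNA Lockd the difference was -2.80 ± 0.49 (SE, adjusted p = 0.0170), for Gbp11 -2.69 ± 0.36 (SE, adjusted p = 0.00278) and for the stress gene Nupr1 -1.74 ± 0.27 (SE, adjusted p = 0.00615). Over all genes the antigen effect differed for 16 genes between low lysine and low leucine (6 larger, 10 smaller in low lysine) and for 32 between low lysine and low arginine (5 larger, 27 smaller).

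With arrays left out in turn, an alternative chosen after seeing the data, all 7 differences kept their sign, and Gbp11 (-2.83 to -2.50, adjusted p 0.00229 to 0.0312) was called in every setting. Without replicate 1 of low arginine without antigen, where the lone array left is assumed to vary like the other groups, Il2 (2.46, adjusted p = 0.139), Nupr1 (-1.69, adjusted p = 0.0829), Ndc80 (-3.45, adjusted p = 0.139), Lockd (-2.50, adjusted p = 0.204) and Hmgcs1 (1.36, adjusted p = 0.139) were not called. Il2 and Nupr1 were called without any other single array. Ndc80 was also not called without replicate 2 of that group or any 1 of the low arginine arrays with antigen (adjusted p 0.0510 to 0.0575). Lockd was also not called without low arginine replicate 1 or 3 with antigen or low lysine replicate 2 without antigen (adjusted p 0.0522 to 0.0630). Hmgcs1 was also not called without replicate 2 of low arginine without antigen, any 1 of the low arginine arrays with antigen or low lysine replicate 1 or 2 without antigen (adjusted p 0.0602 to 0.128). Il21 was not called without low lysine replicate 1 or 2, with or without antigen, or without low leucine replicate 1 or 3 with antigen (-2.97 to -2.67, adjusted p 0.0719 to 0.105). The number of genes called over all genes was 1 to 164 against low leucine and 5 to 161 against low arginine with 1 array left out, highest without low lysine replicate 3 with antigen, and 36 and 60 with quantile normalization.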

How the results depend on the processing

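The comparison with full medium called 1936 genes, and 968 when only the 6 compared arrays were fitted, 1234 with quantile normalization, 2930 with array weights and 903 to 3183 with 1 array left out. Low lysine against low leucine called 416 genes, and 50 with the compared arrays alone, 190 with quantile normalization, 653 among genes above the median level, 1099 with array weights and 84 to 1414 with 1 array left out. Low lysine against low arginine called 715 genes, and 139 with the compared arrays alone, 1143 with array weights and 329 to 1021 with 1 array left out. Antigen in low lysine called 6884 genes and 4862 to 7210 over all alternatives. With the replicate number as a block, the counts were 2318, 638, 897 and 7210 in the fit of all groups and 1018, 77, 228 and 5114 in the compared groups alone, in the order above; same-numbered arrays share only a number. Centring each array on its median gave 7.6% of calls higher against low leucine and 11% against low arginine. The run of submitters' numbers as a block gave 465, 731 and 6769 calls for the 3 comparisons within low media, and the same arrays without it 384, 654 and 6636, a reference chosen after seeing the data. Of 150 called genes named, 69 kept their call under every alternative run and none changed sign. The cause of these shifts was not tested. RMA levels without detection calls limit what can be said of dim probe sets.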

Other observations

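Serine and one-carbon enzymes, which supply carbon units for nucleotides and methylation, had 2 higher and 4 lower genes of 14 in low lysine against full medium (14.3% and 28.6%, against 2.49% and 6.24% of all genes), and 8 did not pass. None of the 6 kept its call both without each array in turn and with quantile normalization. Aldh1l2 and Mthfd2, mitochondrial enzymes that are also ATF4 targets, were higher. Aldh1l2 was at 4.60, 4.35 and 4.73 in full medium and 5.44, 5.0 and 5.17 in low lysine, a difference of 0.64 ± 0.18 (SE, adjusted p = 0.0277). Mthfd2 was at 8.30, 8.48 and 8.47 in full medium and 8.85, 8.75 and 9.02 in low lysine, a difference of 0.46 ± 0.14 (SE, adjusted p = 0.0404). The cytosolic enzymes Shmt1 (-0.84 ± 0.19, SE, adjusted p = 0.00781) and Mthfd1 (-0.52 ± 0.15, SE, adjusted p = 0.0343) fell, as did Mtr, the methionine synthase (-0.50), and Sfxn1, a mitochondrial serine carrier (-0.46). Aldh1l2 (0.52 to 0.66, adjusted p 0.0577 to 0.141) was not called without low lysine replicate 1 or full medium replicate 1 or 2. Mthfd2 (0.39 to 0.52, adjusted p 0.0604 to 0.129) was not called without any 1 of the 6 arrays. Shmt1 (-0.67, adjusted p = 0.0646) was not called without low lysine replicate 1. Mthfd1 (-0.56 to -0.40, adjusted p 0.0691 to 0.195) and Sfxn1 (-0.48 to -0.34, adjusted p 0.0858 to 0.22) were not called without any 1 of the arrays other than low lysine replicate 3. Mtr (-0.48 to -0.44, adjusted p 0.1 to 0.124) was not called without low lysine replicate 1 or 2 or full medium replicate 2 or 3. Aldh1l2 (adjusted p = 0.0812), Shmt1 (adjusted p = 0.0507), Mthfd1 (adjusted p = 0.302), Mtr (adjusted p = 0.299) and Sfxn1 (adjusted p = 0.374) were not called with quantile normalization. In the Myc network of 12 genes only Mxd1, a partner of MAX, was called (-0.70 ± 0.18, SE, adjusted p = 0.0196). That is 8.33% lower, against 6.24% of all genes. Mxd1 (-0.62 to -0.60, adjusted p 0.0775 to 0.106) was not called without low lysine replicate 2 or full medium replicate 1 or 3. Mxd1 (adjusted p = 0.211) was not called with quantile normalization. Of 29 ribosome biogenesis genes 28 were higher with antigen than without it in low lysine, and of 17 tRNA synthetase genes 17, against 18.4% of all genes.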
